A study of Mus musculus with 4 samples.

Results

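The transcriptome described here is that of the colon of untreated germ-free mice, taken from 1 RNA-seq library of the 4 in the series. The library was picked by its label and by no cutoff on a measured value, though the choice was made with earlier results of these data known. All of the 24016 gene rows counted in it were used. The mice were C57BL/6 animals of 7 weeks, bought germ-free from Taconic, with no gavage and no genetic change named in the labels. The other 3 libraries, from mice given PBS, E. coli or L. rhamnosus GG, were also germ-free before gavage, and are not compared here. The treatment protocol, given alike for every sample, describes the gavaged groups, with 4 mice in each and colon pieces of 4 cm. The number of untreated mice, pooling of their RNA, the end of the colon taken and whether the muscle wall was left on are not stated in the labels. With 1 library there is no spread between animals, so every value below is a description of this library and no test was made.

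The colon absorbs salt and water and holds a dense microbial community behind a layer of mucus. Its surface is a single sheet of epithelium, in which absorptive colonocytes and mucus-secreting goblet cells mature as they move from the crypt base to the surface. Beneath it lie a lamina propria of fibroblasts, vessels and immune cells and, outside these, layers of smooth muscle with the enteric nervous system between them. In a germ-free animal the lumen holds no microbes, and no short-chain fatty acids made by them.

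The library held 27220697 counts. A level is given as transcripts per 1000000 (TPM), which is the count divided by the listed length of the gene's exons and scaled so that all rows sum to 1000000. The interval after a level is the exact 95% Poisson interval of its count. It covers counting error only, since the reads carry no molecular identifiers and PCR copies cannot be told from separate molecules. Of the 24016 rows, 14800 (61.6%) reached 1 TPM, 9664 reached 10 TPM, 1817 reached 100 TPM and 160 reached 1000 TPM. A further 5650 rows had no count, which for a transcript of 1000 bases allows a level of up to 0.231 TPM (3 counts). Of these, 430 were deposited at 0.5 and rounded to 0, among them Olfm4, Cxcl2, Cox6a2 and Mptx2 of the genes named here. The median was 11.5 TPM over the 18366 rows with a count. The top 10% of those rows, 1837 rows or 7.65% of all rows, began at 98.9 TPM. The counts of list members given below at 1 TPM and in the top 10% stand beside these shares of all rows, 61.6% and 7.65%. RNA was spread over many genes, since 565 rows were needed to reach 50% of all TPM (1128 to reach 50% of counts), and the 10 most abundant rows held 6.16% of TPM and 3.52% of counts (95% Clopper-Pearson interval 3.51% to 3.52%).

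The marker genes that stand for the main layers of the colon are given first. Car1, a carbonic anhydrase of the colonocyte, stood at 5945 TPM (5907 to 5984) and ranked 5 of all rows. Actg2, the gamma actin of visceral smooth muscle, stood at 3536 TPM (3507 to 3564) and ranked 13. Muc2, the gel-forming mucin of the goblet cell, stood at 3461 TPM (3449 to 3473) and ranked 15. Krt20, a keratin of mature surface epithelium, stood at 1180 TPM and ranked 129. Epithelial surface, goblet cell and muscle markers were thus all among the most abundant RNAs. These markers were set for this part with earlier results of these data known, so their levels are no independent check of the tissue label. In mm9 the rows lie at chr3:14766214-14778460 (Car1), chr6:83462903-83486245 (Actg2), chr7:148876239-148940599 (Muc2) and chr11:99289717-99299467 (Krt20), each spanning a protein-coding gene from start to end. In a bulk sample such as this one, fewer cells of a type and less RNA per cell cannot be told apart.

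**Figure D1:**
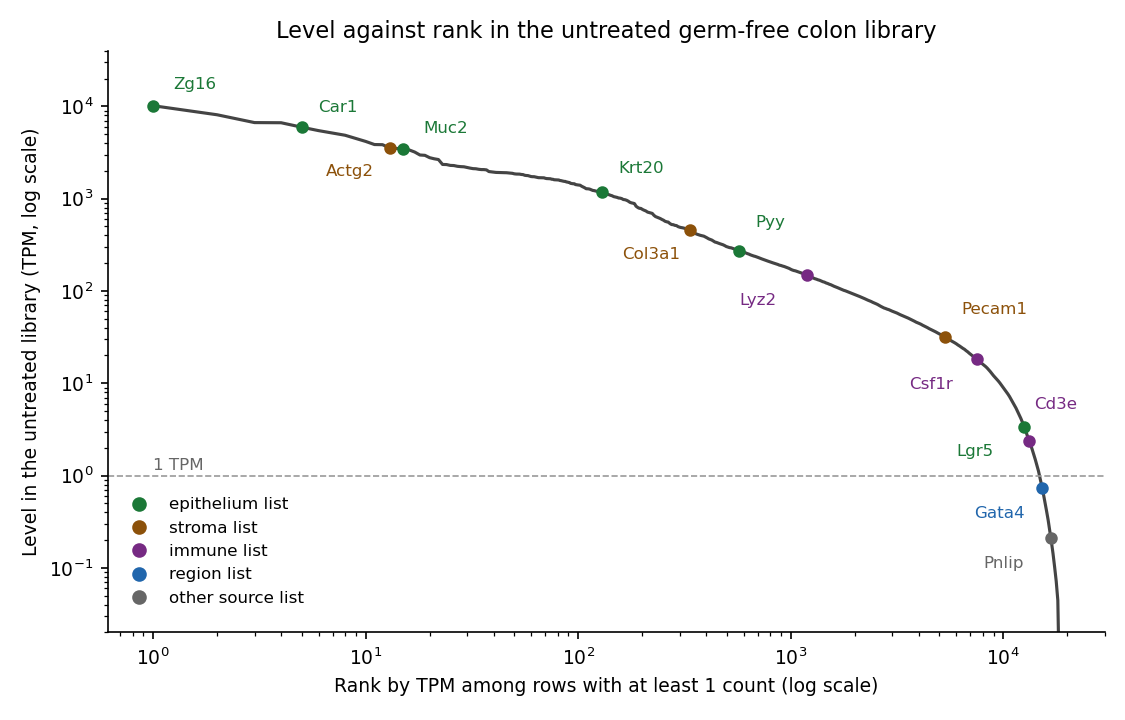
Level in TPM (y axis, log scale) against rank by TPM (x axis, log scale) for rows with at least 1 count in the untreated library, with some list members marked and coloured by kind of list. The y axis ends at 0.02 TPM and the dashed line marks 1 TPM, which is crossed between Cd3e and Gata4, while Zg16, Car1, Actg2 and Muc2 lie at the upper end.

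The 10 most abundant rows held genes of secreted and surface proteins of the epithelium beside a carbonic anhydrase, keratins, an actin and a translation factor. The highest level of any row was that of Zg16, a lectin-like protein that goblet cells release into the mucus, at 10155.5 TPM (10086.6 to 10224.8). Next came Lypd8, a surface protein of colonocytes that binds flagellated bacteria, at 8101 TPM. Lgals4, a galectin of the intestinal epithelium, stood at 5132 TPM, and a row listed as its relative Lgals6 at 6666 TPM. The Lgals6 row lies inside the span of the Lgals4 row on the same strand, and it matched no gene under current naming. Whether it stands for a separate gene in these mice, and how reads were divided between these 2 rows, is thus uncertain. Eef1a1, a translation elongation factor, stood at 6641 TPM, and its interval overlapped that of Lgals6. Behind Car1 followed Krt8 at 5457 TPM and Krt19 at 4482 TPM, which are keratins of simple epithelia. Guca2a, the precursor of guanylin, a peptide that drives salt and water secretion, stood at 4862 TPM, and the cytoskeletal actin Actb at 4167 TPM.

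The next 20 protein-coding genes, with ribosomal proteins left out, ran from 3856 TPM down to 1952 TPM and came from several compartments. Tpt1, a widely expressed growth-related protein, and Tff3, the trefoil peptide of goblet cells, could not be ordered, at 3856 and 3842 TPM with overlapping intervals. The same held for Actg2, the acute-phase protein Saa1 at 3495 TPM (3453 to 3536) and Muc2, each of which overlapped its neighbour in rank. Clca3, a secreted goblet cell protein, stood at 3374 TPM. Under current naming this row is Clca1, and the row listed as Clca1 is another family member. Smooth muscle and general cytoskeleton contributed Tagln at 2703 TPM, Tpm1 at 2080 TPM, Actg1 at 2971 TPM and Myl6 at 2652 TPM. The goblet cell genes Agr2, a disulfide isomerase needed to make mucin, and Klk1, a kallikrein protease, stood at 2213 and 2141 TPM. Others were S100a6 (2946 TPM), Ppia (2340 TPM), Slc25a5 (2283 TPM), Atp5b (2241 TPM), Ftl1 (2107 TPM), Lgals3 (1966 TPM) and Cox6a1 (1952 TPM). Among them Slc25a5 is the mitochondrial ADP/ATP carrier, Atp5b a subunit of ATP synthase, Cox6a1 a subunit of cytochrome oxidase and Ftl1 the ferritin light chain. Myl9, Epcam and Dstn came just below, at 1940, 1919 and 1915 TPM, and the intervals of all 3 overlapped that of Cox6a1.

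Scaling by length reversed the order of Muc2 and Zg16. Its row took 300064 counts, 11023 per 1000000 counts (CPM), which was the largest count of any row, but its listed length of 6686 bases placed it 15 by TPM. Zg16, whose listed length was 631 bases, ranked 13 by counts and first by TPM. On the TPM scale Zg16 was 2.93-fold above Muc2 (95% interval of the ratio 2.91 to 2.96), and Tff3 was 1.11-fold above Muc2 (1.10 to 1.13). Krt20 likewise changed its rank, from 61 by counts to 129 by TPM.

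**Figure D2:**
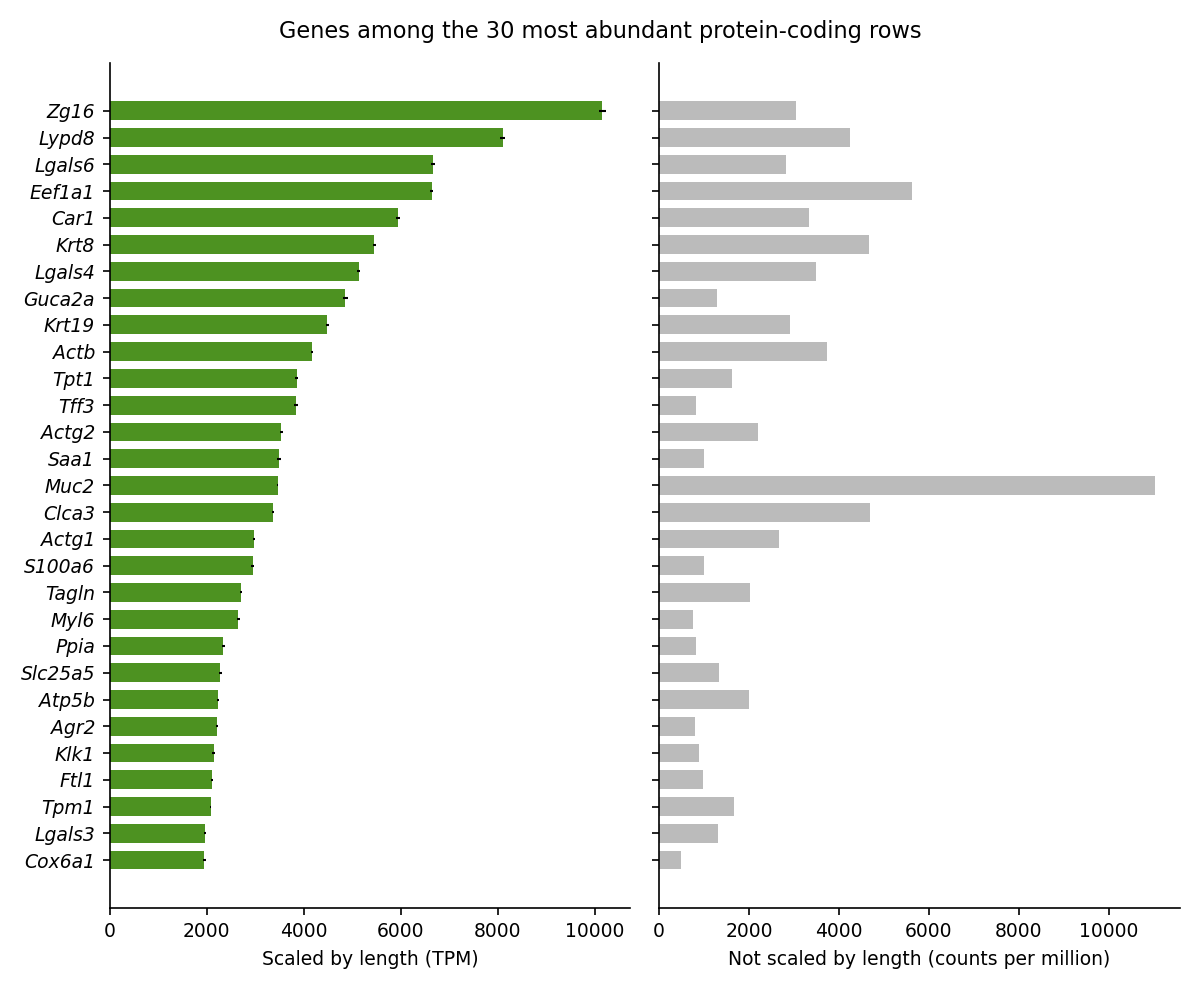
Genes among the 30 most abundant protein-coding rows by TPM (left bars, with 95% Poisson intervals) and the same genes in CPM (right bars), with ribosomal proteins, predicted genes, histones and rows of several copies left out. Zg16 has the longest bar on the left at 10155.5 TPM and Muc2 the longest on the right at 11023 CPM.

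Promoters of these abundant genes ranged from nearly free of CG dinucleotides to rich in them, and 6 are shown because the contrast can be read by eye. Of the 30 genes, 20 had a promoter entry in the RefSeq table of build GRCm38.p6, which holds 250 bases before and 50 bases after each gene start. The 80 bases before the start are printed 5′ to 3′ on the gene's own strand with every CG dinucleotide in capitals. The epithelial genes, 2 of the colonocyte list and 1 of the goblet cell list, come first and 3 genes used by nearly all cells come after.
Guca2a: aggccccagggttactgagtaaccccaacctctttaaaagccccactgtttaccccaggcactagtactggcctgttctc
Lgals4: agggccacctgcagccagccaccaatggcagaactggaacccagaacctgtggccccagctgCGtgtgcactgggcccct
Klk1: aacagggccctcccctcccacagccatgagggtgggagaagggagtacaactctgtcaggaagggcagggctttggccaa
Tpt1: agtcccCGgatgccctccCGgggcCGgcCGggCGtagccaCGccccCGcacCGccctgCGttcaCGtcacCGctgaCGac
Cox6a1: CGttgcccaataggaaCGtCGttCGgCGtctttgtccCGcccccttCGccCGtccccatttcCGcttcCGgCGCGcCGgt
Actg1: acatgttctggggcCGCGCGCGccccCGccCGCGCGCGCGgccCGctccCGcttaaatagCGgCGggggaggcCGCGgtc
The stretches lie at chr4:119637652-119637731 (Guca2a), chr7:28833714-28833793 (Lgals4), chr7:44225280-44225359 (Klk1), chr14:75845176-75845255 (Tpt1), chr5:115348959-115349038 (Cox6a1) and chr11:120348496-120348575 (Actg1). The first 3 hold 0, 1 and 0 CG dinucleotides, and the last 3 hold 12, 13 and 16. Others of the 30 lie between, since the goblet cell genes Muc2 and Agr2 hold 4 and 2, and the widely used genes Eef1a1, Ftl1, Myl6 and Atp5b hold 6, 6, 5 and 8. The genes were chosen for display after their sequences were seen, so the contrast is an illustration.

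Absorptive colonocyte genes were abundant as a group, though the list also holds genes of wider epithelium, such as Lgals4 and Krt19. All 23 members counted of this list reached 1 TPM and 22 were in the top 10%, against 7.65% of all rows. Their median was 655 TPM beside 11.5 TPM over all rows with a count. They made up 4.01% of all TPM, which is not a share of colonocytes alone. Lypd8, Car1, Lgals4 and Guca2a led the list and held 59.9% of its sum. Car1 was 7.44-fold above Car2 (799 TPM) and 4.43-fold above Car4 (1343 TPM), which are other carbonic anhydrases of the colon. The lowest member was Guca2b, the precursor of uroguanylin, at 53.1 TPM (48.1 to 58.5). Guca2a thus stood 91.5-fold above Guca2b (82.999 to 101.1), although both peptides act on the same receptor.

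Goblet cell genes were abundant too. All 16 members counted reached 1 TPM, 12 were in the top 10%, and the median was 678 TPM. With protein-coding rows only it was 1143 TPM, and without length scaling 222 CPM. Zg16, Tff3, Muc2 and Clca3 held 72.4% of the list's sum, and the list made up 2.88% of all TPM. The lowest member was the membrane mucin Muc4 at 25.4 TPM. Clca3 and Muc2 were close, with a ratio of 0.975 (0.968 to 0.981).

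The rarer epithelial types were seen at lower levels. Of 16 enteroendocrine genes, 14 reached 1 TPM and 4 were in the top 10%, with a median of 24.3 TPM. These 4 were the hormone genes Pyy at 272 TPM, Gcg at 144 TPM and Insl5 at 129 TPM, and the granule protein gene Chgb at 114 TPM. Pyy, Gcg and Insl5 encode peptide YY, the precursor of glucagon-like peptides and insulin-like peptide 5, which L cells of the distal gut make together. Pyy was 1.89-fold above Gcg (1.77 to 2.02), and Gcg 1.12-fold above Insl5 (1.04 to 1.21). The lowest of this list was the transcription factor Rfx6 at 0.830 TPM. Tuft cells are rare chemosensory cells, and 7 of their 9 genes reached 1 TPM with none in the top 10% and a median of 2.90 TPM. Ptgs1, a cyclooxygenase found in other cells too, led that list at 45.95 TPM, followed by Avil (9.12 TPM), Dclk1 (8.78 TPM) and Trpm5 (8.59 TPM), and Gfi1b was lowest at 0.425 TPM.

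Crypt base and cycling cells were represented by moderate levels. Of 12 crypt stem cell genes, 11 reached 1 TPM (91.7%, against 61.6% of all rows), 1 was in the top 10% (8.33%, against 7.65%) and the median was 22.5 TPM. Prom1, which is broadly expressed in crypts, led at 167 TPM, followed by Lrig1 (59.5 TPM), Sox9 (43.5 TPM) and Cdca7 (39.7 TPM). Lgr5, the receptor that defines the stem cell, was much lower at 3.39 TPM (2.94 to 3.88), and Prom1 was 49.4-fold above it. Olfm4 had no count, which allows up to 0.142 TPM. Lgr5 was singled out after its value was seen. All 18 proliferation genes reached 1 TPM with a median of 27.8 TPM, and 17 of them lay between 19.0 TPM (Mcm4) and 54.7 TPM (Ccna2). Pcna, the replication clamp, stood apart from the others at 192 TPM, and was followed after Ccna2 by Mcm7 (50.3 TPM) and Mcm6 (46.7 TPM).

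Contractile genes of the muscle wall were abundant as well. All 20 smooth muscle genes reached 1 TPM, 15 were in the top 10%, the median was 757 TPM and the list made up 1.95% of all TPM. Actg2, Tagln, Tpm1 and Myl9 led it, and the potassium channel subunit Kcnmb1 was lowest at 12.4 TPM. Actg2, the enteric form of smooth muscle actin, was 2.10-fold above Acta2 (1686 TPM), the form shared with blood vessels and myofibroblasts. Actb, found in all cells, was 1.18-fold above Actg2. Tpm1 and Flna are also made outside muscle. The 3 genes of interstitial cells of Cajal, the pacemakers of the gut wall, were Ano1 at 78.5 TPM, Kit at 58.9 TPM and Etv1 at 11.9 TPM. Kit is shared with mast cells, and Ano1 with epithelium.

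Other stromal cells were each detectable. All 15 fibroblast and matrix genes reached 1 TPM and 9 were in the top 10%, with a median of 163 TPM. Col3a1 (461 TPM), Sparc (359 TPM), Dcn (293 TPM) and Dpt (212 TPM) led, and Pi16 was lowest at 8.62 TPM. All 13 endothelial genes reached 1 TPM and none was in the top 10%. They ran from Plvap, a protein of fenestrated capillaries, at 72.1 TPM to Vwf at 4.198 TPM, and the next after Plvap were Pecam1 (31.7 TPM), Lyve1 (23.2 TPM) and Egfl7 (22.0 TPM). All 15 enteric neuron genes reached 1 TPM with a median of 21.4 TPM. Uchl1 (63.9 TPM) and the transmitter genes Gal (57.1 TPM), Tac1 (54.6 TPM) and Vip (35.4 TPM) were highest, and the RNA-binding protein gene Elavl3 was lowest at 2.61 TPM. The 6 enteric glia genes had a median of 6.21 TPM. Erbb3, which epithelium also makes, was the exception at 183 TPM, and the others included Gfap (6.67 TPM) and Sox10 (5.75 TPM), with Foxd3 lowest at 2.41 TPM.

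Genes of fat and serosa differed in level. The adipocyte list had a median of 24.1 TPM and the mesothelial list 4.78 TPM, beside 11.5 TPM over all rows with a count. The adipocyte genes Fabp4 and Cfd lay above 98.9 TPM, the cut for the most abundant rows given above. No mesothelial gene did. An amount of tissue cannot be read from these levels. Of 8 adipocyte genes, 7 reached 1 TPM, from Fabp4 at 197 TPM, Cfd at 136 TPM, Lpl at 36.4 TPM and Cidec at 24.6 TPM down to Lep at 0.901 TPM. Of 6 mesothelial genes, 5 reached 1 TPM, led by Upk3b (13.8 TPM), Msln (9.27 TPM), Upk1b (6.22 TPM) and Lrrn4 (3.34 TPM), with Bnc1 at 0.729 TPM.

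Lymphocyte genes had medians under that of all rows with a count. Of 12 B and plasma cell genes, 10 reached 1 TPM and none was in the top 10%, with a median of 2.36 TPM. Igj, the joining chain of secreted immunoglobulin, stood at 28.3 TPM, Cd79a at 11.2 TPM and Cd79b at 7.78 TPM, and Derl3, a secretory-pathway gene, was lowest at 0.697 TPM. Of 15 T cell and intraepithelial lymphocyte genes, 9 reached 1 TPM (60%, against 61.6% of all rows) with a median of 1.54 TPM, which is less than the 11.5 TPM over all rows with a count. Cd247 (5.49 TPM), Foxp3 (4.18 TPM), Lck (4.11 TPM) and Cd3g (3.35 TPM) led, and Cd8b1 was lowest at 0.110 TPM (0.0133 to 0.396). Foxp3 is the regulator of regulatory T cells, and its row overlaps another row on the same strand, so its level is uncertain.

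Among myeloid genes, those of macrophages lay near the middle of all rows with a count and most of those of granulocytes below 1 TPM. All 12 macrophage genes reached 1 TPM and 1 was in the top 10% (8.33%, against 7.65% of all rows), with a median of 14.3 TPM beside 11.5 TPM. Lyz2, the lysozyme of myeloid cells, led at 148 TPM, followed by the 3 chains of complement C1q, which were close together at 68.6 TPM (C1qa), 54.0 TPM (C1qc) and 51.6 TPM (C1qb), and Cd163 was lowest at 3.52 TPM. All 7 MHC class II genes reached 1 TPM and had a median of 89.1 TPM. They were led by the invariant chain Cd74 (299 TPM), H2-Aa (140 TPM), H2-Ab1 (121 TPM) and H2-Eb1 (89.1 TPM), and their transactivator Ciita was lowest at 1.74 TPM. Of 13 granulocyte and mast cell genes, 3 reached 1 TPM. These were Kit, shared with the cells of Cajal, Siglec5 (also named Siglecf) at 2.81 TPM and the mast cell protease Mcpt1 at 1.89 TPM. Mcpt2 was next at 0.640 TPM. The neutrophil genes S100a8, S100a9 and Mpo had no count, which allows levels of up to 0.598, 0.446 and 0.0914 TPM.

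**Figure D3:**
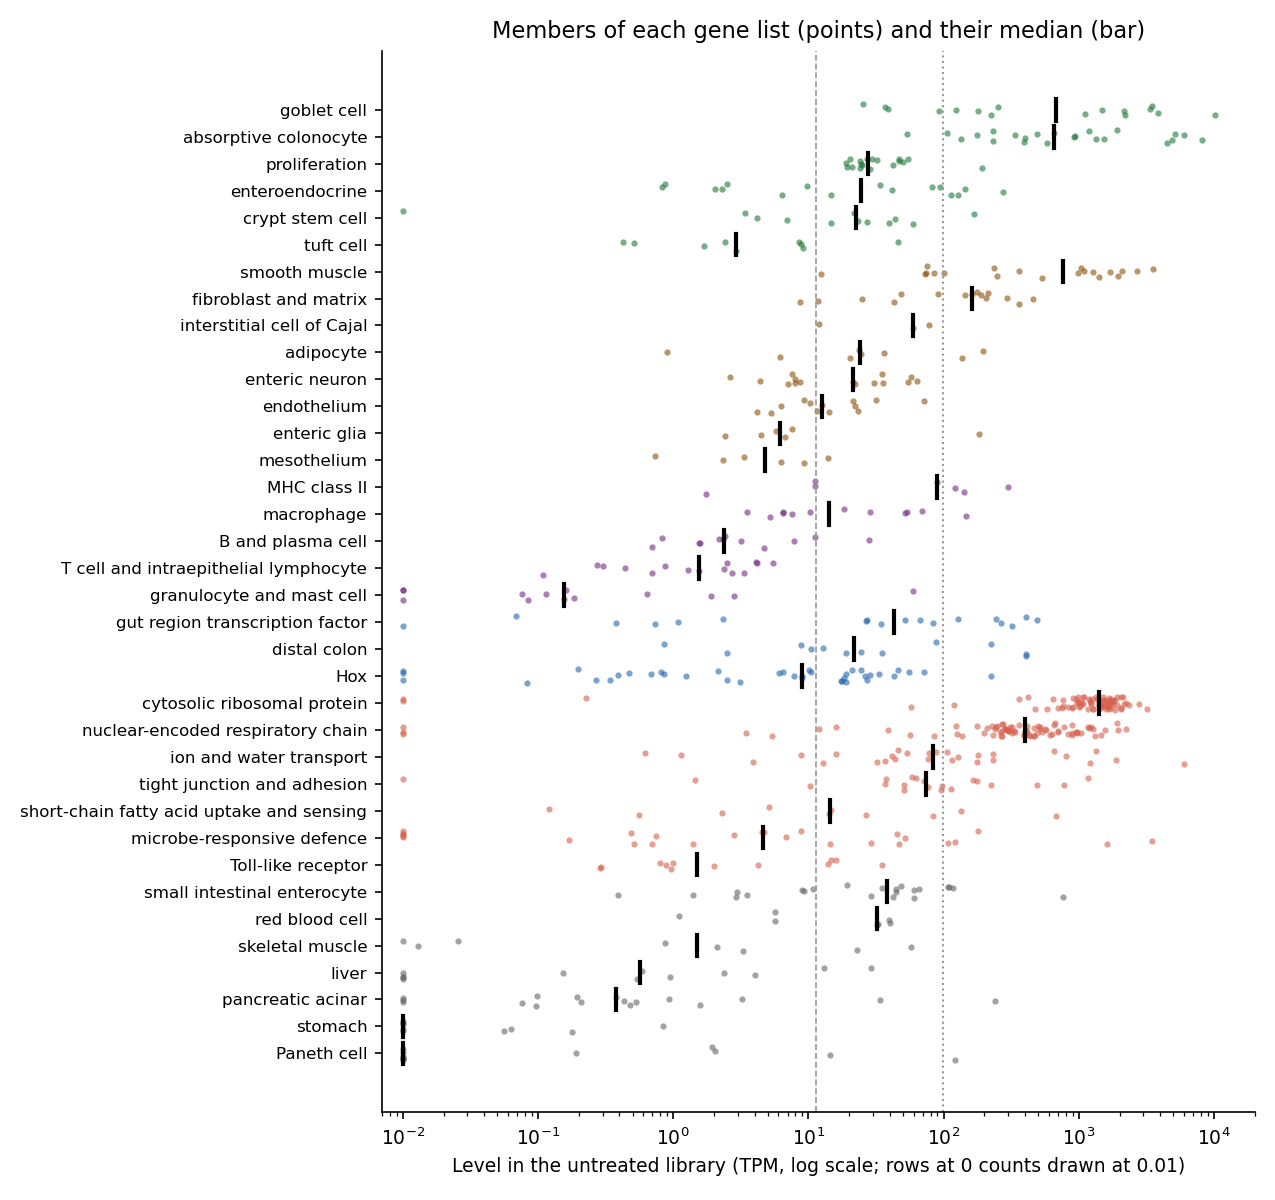
Level of each list member in TPM (points, log scale, spread vertically only for legibility) and the list median (black bar), coloured by kind of list, with rows at 0 counts drawn at 0.01. The dashed line is the median of all rows with a count (11.5 TPM) and the dotted line the start of the top 10% (98.9 TPM). Colonocyte, goblet cell, smooth muscle, ribosomal protein, respiratory chain and fibroblast medians lie right of the dotted line.

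Genes of neighbouring organs were looked for as signs of other tissue in the sample. None of 9 stomach genes reached 1 TPM, and Gkn2, Tff1, Muc5ac and Atp4b were among the 5 with no count, while Ghrl was highest at 0.840 TPM. Of 12 liver genes, 4 reached 1 TPM, from Tat at 28.9 TPM and Cyp2e1 at 12.96 TPM to Cps1 at 3.99 TPM and Cyp3a11 at 2.38 TPM. Albumin, chosen for naming after its value was seen, stood at 0.952 TPM, and Serpina1a, Fga, Fgb and Fgg had no count. Of 17 pancreatic acinar genes, 4 reached 1 TPM. Cela1, an elastase, was the exception at 239 TPM, which was 73.7-fold above Cela2a (3.25 TPM). Clps stood at 34.1 TPM and Ctrl at 1.58 TPM, while Prss1, Amy2a5 and Amy2b had no count and Pnlip, the pancreatic lipase, had 4 counts. Skeletal muscle gave 4 of 8 genes at 1 TPM, with the creatine kinase Ckm at 57.4 TPM, Acta1 at 22.9 TPM, Mylpf at 3.31 TPM and Tnni2 at 2.11 TPM, and no count of Pvalb. The part of other tissue in these values was not tested.

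The red blood cell list made up 0.0157% of all TPM. The globin rows Hbb-b1 (40.2 TPM), Hbb-bs (39.4 TPM), Hba-a1 (32.6 TPM) and Hba-a2 (31.9 TPM) led the red blood cell list, and Alas2, the heme synthesis enzyme of erythroid cells, was lowest at 1.10 TPM. The 2 rows of each of these pairs overlap on the same strand and hold nearly the same counts, 326 and 324 for the beta pair, so they cannot be read as separate genes.

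Genes of Paneth cells, which sit in crypts of the small intestine, ranged from no count to 121 TPM. Of 12 Paneth cell genes, 4 reached 1 TPM and 7 had no count, among them Defa20, Defa21, Defa22 and Defa23. Ang4, an antimicrobial ribonuclease, stood at 121 TPM, Lyz1, the Paneth cell lysozyme, at 14.3 TPM, and Itln1 and Mmp7 at 2.05 and 1.95 TPM. Ang4 was in the top 10% while none of the listed alpha-defensins reached 1 TPM. Alpha-defensin rows are near-identical copies, and their counts are uncertain for that reason.

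Genes of the small intestinal enterocyte were present at a middle level. Of 22, 21 reached 1 TPM and 4 were in the top 10%, with a median of 38.4 TPM. Fabp2, the intestinal fatty acid binding protein, led at 758 TPM and was 85.3-fold above Fabp1 (8.89 TPM). The sugar carrier Slc5a1 (117 TPM), the ileal bile acid carrier Slc10a2 (109 TPM) and the peptide carrier Slc15a1 (108 TPM) followed. Slc2a2, the basolateral sugar carrier of the small intestine, was lowest at 0.392 TPM. Several of these genes are also made by colonocytes.

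Levels of the listed gut region transcription factors ran from 492 TPM to no count. Of 18, 14 reached 1 TPM and 6 were in the top 10%. Klf4, a factor of differentiated epithelium, stood at 492 TPM, Hnf4a at 410 TPM, Cdx1 at 321 TPM, Klf5 at 264 TPM, Cdx2 at 243 TPM and Isx at 129 TPM. The Cdx factors give the intestine its identity, and Cdx1 was 1.32-fold above Cdx2 (1.28 to 1.37). Foxa1 (66.9 TPM), Foxa3 (51.4 TPM), Gata6 (34.4 TPM), Foxa2 (26.9 TPM) and Hnf4g (26.8 TPM) formed a middle group, and the last 2 had overlapping intervals. Gata5 (2.34 TPM) and Pdx1 (1.08 TPM) were near the limit of 1 TPM. Gata4, a factor of the proximal small intestine, stood at 0.729 TPM (0.499 to 1.03), and Cdx2 was 333-fold above it (236 to 487). Sox2, a factor of the foregut, stood at 0.377 TPM and Onecut2 at 0.0691 TPM. Barx1, a factor of stomach mesenchyme, had no count, which allows up to 0.171 TPM.

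Hox genes record position along the body axis, and their paralogue numbers rise toward the tail. Of 39, 27 reached 1 TPM (69.2%, against 61.6% of all rows) and 1, Hoxb13, was in the top 10% (2.56%, against 7.65%). Hoxb13, at chr11:96055675-96057913 in mm9, stood at 225 TPM (218 to 232) and was 11.9-fold above Hoxd13 (18.8 TPM) and 9.17-fold above Hoxa13 (24.5 TPM). The Hoxb genes summed to 468 TPM, the Hoxa genes to 230 TPM, the Hoxd genes to 62.5 TPM and the Hoxc genes to 3.93 TPM. In the Hoxb cluster 9 of 10 genes reached 1 TPM, with Hoxb9 (71.1 TPM) and Hoxb6 (55.2 TPM) next to Hoxb13, and Hoxb1 had no count. In the Hoxa cluster Hoxa10 (45.8 TPM) and Hoxa11 (42.8 TPM) were highest, with overlapping intervals. In the Hoxd cluster 7 of 9 reached 1 TPM, with Hoxd13 highest and Hoxd1 lowest at 0.0830 TPM. In the Hoxc cluster Hoxc4 alone did so, at 1.247 TPM (0.853 to 1.76), and Hoxc12 and Hoxc13 had no count. Levels did not rise evenly with paralogue number, since Hoxa4 (2.13 TPM), Hoxa6 (6.54 TPM) and Hoxd12 (0.853 TPM) fell below the neighbours on both sides. Neighbouring Hox genes share transcripts, and Hoxa11 overlaps an antisense row, so single values in a cluster are uncertain.

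**Figure D4:**
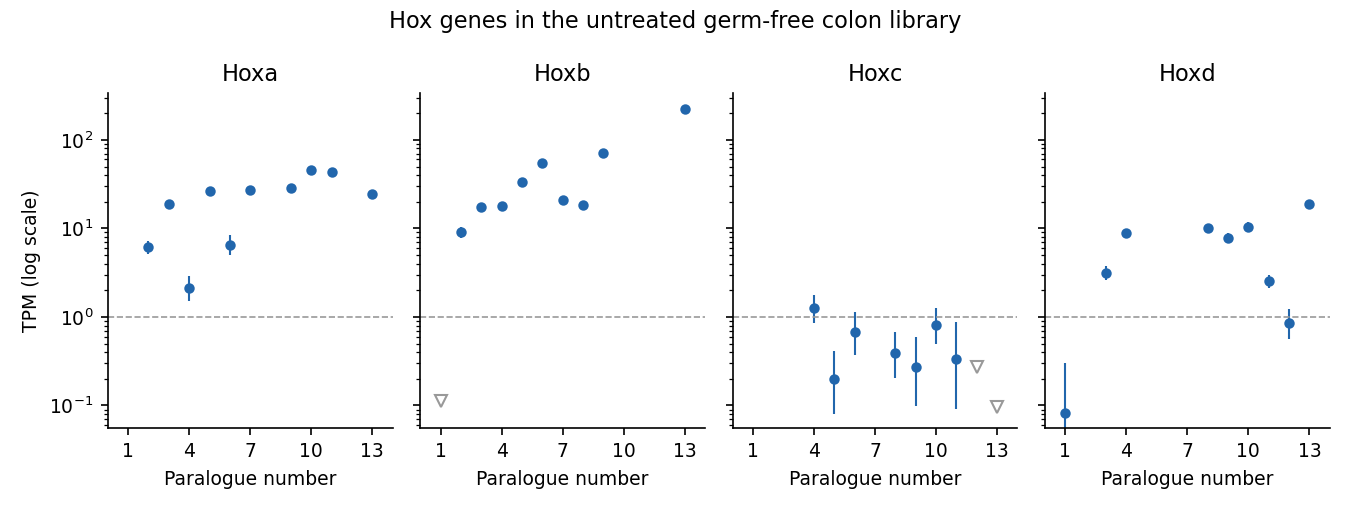
Level of Hox genes in TPM (log scale) by paralogue number in the 4 clusters, with 95% Poisson intervals as vertical lines. Open triangles mark the level that 3 counts would give for genes with no count, and the dashed line marks 1 TPM. Hoxb13 is the highest point at 225 TPM, and all Hoxc points lie at or below 1.247 TPM.

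The list of distal colon genes holds 6 of these Hox genes and 6 genes of transport and metabolism. Of the 12, 11 reached 1 TPM and 3 were in the top 10%. The amino acid carrier Slc6a14 (406 TPM) and Hsd11b2 (404 TPM), the enzyme that protects the mineralocorticoid receptor from glucocorticoids, could not be ordered, with a ratio of 1.00 (0.980 to 1.03). The 3 subunits of the epithelial sodium channel were unequal, and Scnn1a (87.7 TPM) was 6.88-fold above Scnn1b (12.7 TPM), with Scnn1g at 8.78 TPM. Scnn1b and Scnn1g were named after their values were seen. Hoxd12 was lowest.

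Ion and water transport genes were abundant, with 27 of 28 at 1 TPM, 13 in the top 10% and a median of 83.1 TPM. Car1, Car4 and Atp1b1 (1208 TPM), a subunit of the sodium pump, were among the 4 highest. The chloride-bicarbonate exchanger Slc26a3 (655 TPM) was 6.18-fold above the sodium-proton exchanger Slc9a3 (106 TPM), its partner in salt absorption. Slc9a2 (233 TPM), another apical exchanger, was 2.203-fold above Slc9a3 (2.119 to 2.290). Aqp3, a water channel, was lowest at 0.615 TPM. The exchangers were named after their values were seen.

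Tight junction and adhesion genes showed a large range among claudins, the proteins that set what passes between cells. Of 20 genes, 19 reached 1 TPM and 7 were in the top 10%, with a median of 74.0 TPM. Cldn7 (1160 TPM) was 1.48-fold above Cldn3 (782 TPM), and Cldn3 10.2-fold above Cldn4 (76.8 TPM). Cdh1, the epithelial cadherin, stood at 491 TPM and F11r, a junctional adhesion molecule, at 223 TPM. Cldn18, a claudin of the stomach, had no count.

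Carriers and receptors for short-chain fatty acids were measured in these mice, which lack the microbes that make the acids. Of 10 genes, 8 reached 1 TPM and 2 were in the top 10%, with a median of 14.5 TPM. Bsg, the chaperone of the monocarboxylate carriers and widely expressed, stood at 680 TPM. The carriers Slc16a1 (134 TPM) and Slc5a8 (83.1 TPM) came next, with a ratio of Slc5a8 to Slc16a1 of 0.622 (0.601 to 0.644). Ffar2, a receptor for acetate and propionate, stood at 26.6 TPM and was 11.6-fold above Ffar3 (8.69 to 15.9), which was at 2.28 TPM. Slc5a12 was lowest at 0.121 TPM.

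Defence genes known to respond to microbes were spread from among the highest rows to none. Of 26, 16 (61.5%, against 61.6% of all rows) reached 1 TPM and 5 were in the top 10%, with a median of 4.61 TPM. Saa1 ranked 14 of all rows, whereas its neighbour Saa2 stood at 46.9 TPM, a ratio of 74.6 (67.3 to 82.9). Reads of these close relatives may be hard to divide. Pigr, which carries IgA across the epithelium, stood at 1621 TPM, Retnlb, a goblet cell antimicrobial protein, at 178 TPM, and Ang4 at 121 TPM. The C-type lectins Reg3b and Reg3g stood at 52.2 and 8.76 TPM, and were named after their values were seen. S100a8, S100a9, Il22, Il17a and Cxcl2 had no count, which for Il22 and Il17a allows up to 0.214 and 0.198 TPM.

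Toll-like receptors, which bind microbial molecules, had a median of 1.497 TPM, beside 11.5 TPM over all rows with a count, and 4 of them lay above that value. Of 12, 7 reached 1 TPM (58.3%, against 61.6% of all rows) and none was in the top 10%. Tlr1, a partner of Tlr2 in sensing lipopeptides, was highest at 35.3 TPM, 2.41-fold above Tlr2 (2.18 to 2.66). Tlr3, a sensor of double-stranded RNA, stood at 15.97 TPM, Tlr2 at 14.7 TPM and Tlr4, the endotoxin receptor, at 14.1 TPM. Tlr5, which binds flagellin, stood at 4.202 TPM. Tlr12 followed at 1.99 TPM, while Tlr13 (1.00 TPM), Tlr7 (0.960 TPM), Tlr9 (0.890 TPM) and Tlr6 (0.802 TPM) were all near 1 TPM, and Tlr8 (0.293 TPM) and Tlr11 (0.289 TPM) were lowest.

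Genes of protein synthesis and respiration took the largest shares of any list. The 81 cytosolic ribosomal protein genes with protein-coding accessions, paralogues included, made up 10.7% of all TPM. Of these, 78 reached 1 TPM and 77 were in the top 10%, with a median of 1406 TPM. Rps27 (1122 TPM), whose row has a non-coding accession, was not counted among them. Rplp1 (3200 TPM), Rpl41 (2778 TPM) and Rps9 (2347 TPM) were highest. The tissue-restricted copies Rpl10l and Rpl39l had no count, and Rpl3l, a form of heart and skeletal muscle, had 4 counts. Of 83 nuclear-encoded respiratory chain genes, 80 reached 1 TPM and 73 were in the top 10%, with a median of 398 TPM and 4.39% of all TPM. Atp5b, Cox6a1 and Cox4i1 (1900 TPM) were highest, and the testis or muscle forms Cox6a2, Cox7b2 and Cox8c had no count. Ribosomal protein genes have many processed copies in the genome, which can take or lend reads.

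Rows with non-coding accessions took 2.64% of counts. The 5 most abundant were Fth1 (1847 TPM), Gm12191 (1729 TPM), Gm15772 (1287 TPM), Neat1 (1180 TPM) and Rps27 (1122 TPM). Fth1 and Rps27 are annotated as protein-coding genes whose listed transcript is a non-coding one. Gm12191 and Gm15772 are pseudogenes whose listed spans overlap the ribosomal protein genes Rpl30 and Rpl26. Neat1, the RNA scaffold of paraspeckles, was thus the only long non-coding RNA gene among the 5. The 1090 miRNA rows held 0.0350% of counts but 0.554% of TPM, because their listed lengths are short. Mir147, with 486 counts over 78 bases, lies inside the gene AA467197, and such a level cannot be told apart from that of the host transcript. Of 1431 olfactory and vomeronasal receptor genes, 1387 had no count and 7 reached 1 TPM, led by Olfr165 at 21.3 TPM, Olfr613 at 6.20 TPM and the short-chain fatty acid receptor Olfr78 at 5.13 TPM.

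Across all protein-coding rows, classes of level differed in transcript length and promoter sequence, given as a description of genes within 1 library. The median listed length was 997 bases for rows with no count, 3092.5 bases for rows from 1 to under 10 TPM and 869 bases for the 155 rows of 1000 TPM or more. Olfactory and vomeronasal receptor genes supplied 1387 of all 5650 rows with no count, non-coding rows included. How far this family sets the length and promoter values of the class with no count was not tested. TPM divides by length, so the 2 measures share a term. Over all 18366 rows with a count, the Spearman correlation of length with TPM was -0.012. The ratio of CG dinucleotides observed to expected over the 300 bases of the promoter was given only for sets with at least 80% of genes matched. All protein-coding rows (79.7% matched) were added as a baseline. Its median was 0.155 for genes with no count, 0.785 for genes from 10 to under 100 TPM and 0.771 for genes from 100 to under 1000 TPM. Beside these it was 0.606 for all protein-coding rows with a promoter, the like set, and 0.389 for all 27025 promoters. By list it was 0.883 for proliferation, 0.801 for the respiratory chain, 0.547 for enteroendocrine, 0.341 for smooth muscle, 0.247 for small intestinal enterocyte, 0.243 for liver, 0.187 for pancreatic acinar and 0.109 for olfactory and vomeronasal receptor genes. The colonocyte and goblet cell lists had fewer than 80% of genes matched, and their values are not given.

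**Figure D5:**
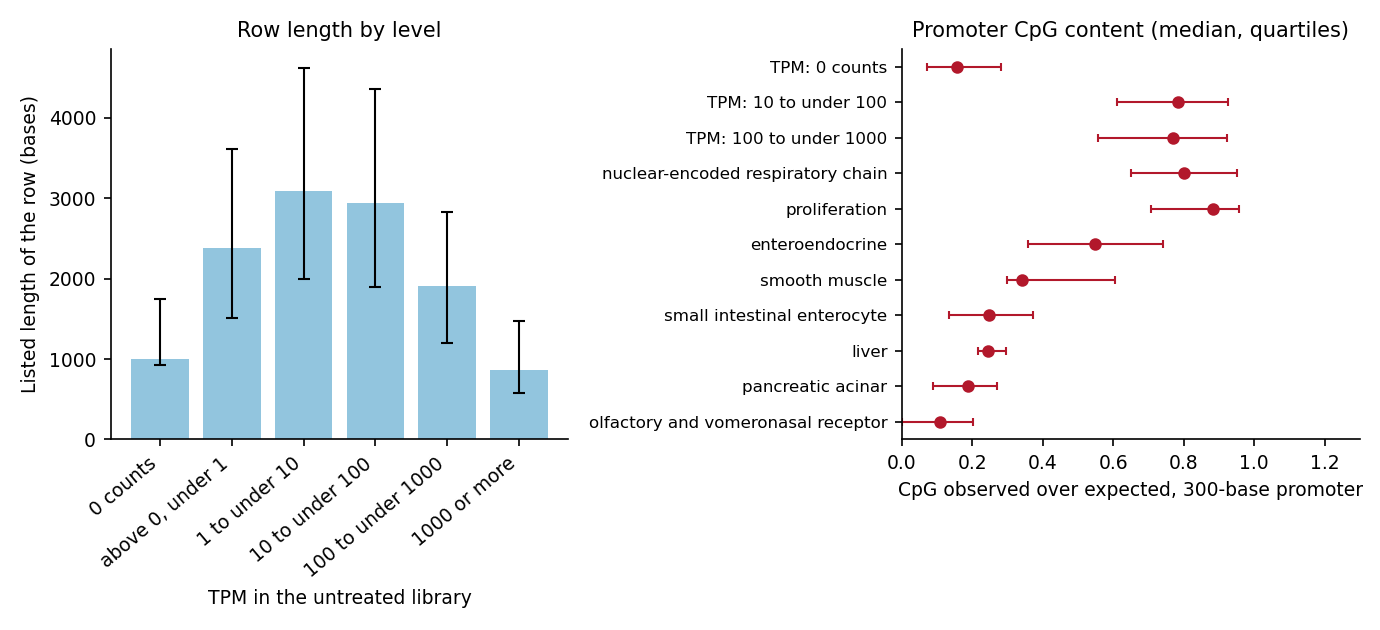
Left, median listed length in bases of protein-coding rows by TPM class (bars, with quartiles as lines). Right, observed over expected CG dinucleotides in the 300-base promoter by TPM class and gene list (median as point, quartiles as lines). Length is greatest from 1 to under 10 TPM, and the CG ratio is 0.155 at 0 counts and 0.785 from 10 to under 100 TPM.

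The core TATA box was searched as the exact string TATAAA, and variants of the box were not counted. On the gene's strand, with its first base 40 to 20 bases before the start, the string was present in 2.21% of all promoters. On either strand anywhere in the 300 bases it was present in 14.2%. The share at 40 to 20 bases was 6.73% of genes with no count, 1.03% of genes from 10 to under 100 TPM and 2.53% of genes from 100 to under 1000 TPM. Beside these it was 2.91% of all protein-coding rows with a promoter (79.7% matched), the like set. Among the 20 of the 30 most abundant genes that had a promoter entry, 1 held it, Ppia. Of the 23 colonocyte genes, 17 had an entry, too few to give a share, and 3 of these held it, Krt20, Slc26a3 and Cyp2c55. The match is shown in capitals within the 80 bases before the start.
Krt20: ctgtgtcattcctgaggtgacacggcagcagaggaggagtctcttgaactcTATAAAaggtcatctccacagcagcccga
Slc26a3: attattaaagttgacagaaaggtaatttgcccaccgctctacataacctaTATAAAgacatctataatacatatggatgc
Cyp2c55: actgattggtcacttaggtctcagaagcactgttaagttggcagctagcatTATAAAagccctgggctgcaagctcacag
Ppia: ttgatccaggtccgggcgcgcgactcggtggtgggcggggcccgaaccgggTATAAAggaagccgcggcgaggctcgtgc
They lie at chr11:99438154-99438233 (Krt20), chr12:31438139-31438218 (Slc26a3), chr19:39006939-39007018 (Cyp2c55) and chr11:6415787-6415866 (Ppia) in GRCm38.p6. The match begins 29 bases before the start in Krt20, Cyp2c55 and Ppia and 30 bases before it in Slc26a3, whose levels were 1180, 398, 2340 and 655 TPM. The CArG box, bound by serum response factor in muscle genes, reads alike on both strands and was searched over the 250 bases before the start and matched in 1.41% of all promoters. It matched in 1 of 16 smooth muscle promoters, that of Myl9, and also in those of the epithelial gene Vil1 (584 TPM) and of Actg1. The Myl9 and Vil1 stretches are shown with the match in capitals.
Myl9: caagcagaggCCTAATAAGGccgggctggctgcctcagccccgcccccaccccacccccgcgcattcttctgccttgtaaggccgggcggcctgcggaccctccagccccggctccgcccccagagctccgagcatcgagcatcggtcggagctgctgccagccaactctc
Vil1: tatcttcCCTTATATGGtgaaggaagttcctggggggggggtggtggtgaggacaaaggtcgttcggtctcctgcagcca
The stretches lie at chr2:156775293-156775463 (Myl9) and chr1:74409304-74409383 (Vil1). A match to these letters is a description of the sequence and not a shown binding site.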

How the data were processed

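Colon RNA was extracted with TRIzol, treated with DNase on columns and made into an Illumina TruSeq RNA v2 library, per the labels' protocols. Per the submitters' processing notes, the tools were TopHat2 and HOMER and the build mm9; their roles and versions, the annotation release and the use of strand are not named in the labels or the file. The deposited table holds values in steps of 0.5 per RefSeq gene row, which are read here to be expected counts, each with a listed length and number of copies. In the untreated column 9320 rows held a value that was not whole, and values were rounded to the nearest whole number, with 0.5 going to the even one. The origin of the 0.5 steps is unknown, so how far the Poisson intervals, which take each count as 1 independent read, are too narrow or too wide was not tested. TPM was computed from the deposited counts and lengths, with exact Poisson intervals for levels, Clopper-Pearson intervals for shares and exact conditional binomial intervals for ratios, all at 95%, and a floor of 3 counts for 0 (Python 3.11.15, numpy 2.4.6, scipy 1.17.1, pandas 2.3.3, matplotlib 3.10.9). The levels script was tested on simulated data. List members were found by accession through a RefSeq table, which matched 23711 of 24016 rows; names are printed as listed. Of 20420 protein-coding rows, 16274 (79.7%) matched a promoter entry, and the most upstream entry per gene was used.

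Genes were named by rule: the 30 most abundant protein-coding rows (without ribosomal proteins, predicted genes, histones and rows of several copies), the 5 most abundant non-coding rows, the 3 highest ribosomal protein and respiratory chain genes, in each list the 4 highest, the lowest and up to 4 members with no count, any gut region factor, Hox gene or Toll-like receptor, and Car1, Muc2, Krt20 and Actg2. Any gene named outside this rule, such as the second gene of a ratio, was chosen after its value was seen. The lists and the choice of this library were made with earlier results of these data known. No comparison between conditions was made. Alternatives were no length scaling, an effective length, protein-coding rows only, rows of several copies left out, unrounded counts, rows under 10 counts left out, other thresholds and, chosen after seeing the data, rows nested in another row left out. A few genes that the rule would name are not reported here, and are not labelled in the figures.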

Additional observations from a re-analysis of the deposited data

How the results depend on the processing

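No paired analysis was possible because there is 1 library and no comparison between groups. Without length scaling, 1128 rows rather than 565 made up 50% of the total, and the 10 most abundant rows held 4.98% rather than 6.16%. That share was 6.55% with an effective length (200 bases subtracted), 6.37% with protein-coding rows only, 6.17% without rows of several copies and 6.06% without rows nested in another row on the same strand, an alternative chosen after seeing the data. The number of rows at 1 TPM, or at 1 CPM without length scaling, ranged from 13639 (protein-coding rows only) to 14800 (as reported). With other thresholds, 11644 rows reached 5 TPM and 15746 reached 0.5 TPM. Of 238 members of the cell type lists counted together, 71 were in the top 10% (68 to 72 over the alternatives) and 93 in the top 20%. At 1 TPM there were 213 (210 to 217), with 223 at 0.5 TPM and 179 at 5 TPM. Muc2 ranked 1 without length scaling and 24 with an effective length, and Krt20 ranked 61 and 161. Without length scaling, 18 of 34 list medians stayed within 1.5-fold, from 0.266 times (red blood cell) to 2.46 times (interstitial cell of Cajal). Leaving out rows under 10 counts kept 26 of 34 within that limit and raised the granulocyte and mast cell median 17.9 times. Leaving out rows of several copies lowered the red blood cell median to 0.178 times, and protein-coding rows only raised the goblet cell median 1.685 times. Counting depth limits single values only for rows with few counts. The spread between mice is unknown, and it is not covered by any interval given.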

Other observations

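All genes in this section were named after their values were seen. Muc5b, a mucin of airways, had 1 count, and Muc6, a gastric mucin, stood at 0.284 TPM. Muc1 stood at 8.63 TPM. Of the Clca family, the rows listed as Clca6 (217 TPM) and Clca4 (139 TPM) were in the top 10% beside the goblet cell row Clca3. The rows listed as Clca1 (4.05 TPM) and Clca2 (4.07 TPM) were not, and all 5 rows lie close together on chromosome 3. Mptx2 had 0.5 counts, rounded to 0.

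Xist, the RNA that silences an X chromosome in females, had 17134 counts and stood at 73.8 TPM. All 47 rows on chromosome Y, placed or unplaced, had no count, including Ddx3y, Eif2s3y, Kdm5d and Uty. The labels give no sex for these mice.

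The nuclear RNA Malat1 stood at 219 TPM, below Neat1 at 1180 TPM. The ribosomal RNA row Rn45s took 67350 counts, which is 0.247% of all counts, and Lars2 stood at 278 TPM. The 68 histone rows, of which 28 reached 1 TPM, held 0.0782% of TPM. Most histone messages end without a poly(A) tail, and the effect of RNA selection on these rows was not tested. Gapdh, often used as a reference gene, stood at 1702 TPM.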
